A study of Mus musculus with 12 samples.

Results

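The genes described here encode the proteins that stand nearest to the B cell receptor in its signalling pathway. They were listed as Cd79a, Cd79b, Syk, Lyn, Btk, Blnk, Plcg2, Pik3ap1 and Bank1, and every probe set that the array annotation assigned to one of these genes alone was taken. That gave 12 of the 45101 probe sets on the array, and they read 8 of the 9 listed genes. Lyn, the Src-family kinase of the list, was assigned no probe set of its own and was not analysed here. All 12 probe sets passed the filter on low values, a log2 value above 4 on at least 3 arrays. Where a gene had several probe sets, the one with the highest mean signal stood for it, so the 8 genes stood among 9293 tested genes.

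RNA was measured on 12 one-colour Affymetrix arrays from mouse splenic B cells sorted on the surface protein B220, on a mixed 129/Sv-C57BL/6 background. The control genotype was Foxp1wt/flox, with 1 conditional (flox) allele of the forkhead transcription factor gene Foxp1 and 1 wild-type allele, and the deleted genotype was Foxp1flox/del, with 1 conditional and 1 deleted allele. Both genotypes therefore carried a flox allele, and how or in which cells it was recombined was not given in the sources used here, nor was the age of the mice. All cells were incubated for 4 h, either unstimulated or with what the labels call IgM, and each of the 4 groups had 3 arrays. The labels do not say which replicates came from separate animals, so p-values measure the spread between these samples. Xist, an X-linked RNA made in female cells, read 2.23 to 2.44 on the 4 arrays of replicate 1 and 7.67 to 11.75 on the others, so replicate 1 did not share its source with the other replicates of any group.

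The B cell receptor is a membrane immunoglobulin that carries no signalling domain of its own. It pairs with CD79A and CD79B, whose cytoplasmic tails hold immunoreceptor tyrosine-based activation motifs. When the receptor is crosslinked, Src-family kinases such as LYN phosphorylate these motifs and the kinase SYK docks on them. SYK phosphorylates the adaptor BLNK, which brings together the kinase BTK and the phospholipase PLCG2, and PLCG2 then makes the second messengers that release calcium and activate protein kinase C. PIK3AP1, also called BCAP, is an adaptor that recruits phosphoinositide 3-kinase, and BANK1 is a B cell scaffold protein that binds LYN and calcium channels. SYK, BTK, PLCG2 and PIK3AP1 are also made by myeloid cells, whereas CD79A, CD79B, BLNK and BANK1 are made mainly by B cells.

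Promoter sequences from RefSeq (GRCm38.p6) were available for 7 of the 9 genes, in 8 windows, with none for Cd79b or Lyn. Shown are the 250 bases before the transcription start of the 4 genes whose window lay wholly outside the annotated gene, which include a member with lower values under IgM (Cd79a), the member with higher ones (Pik3ap1) and members with genotype differences of opposite sign (Plcg2 and Blnk). Capitals mark matches, on either strand, to the forkhead core TGTTTAC, the EBF1 letters CCCNNGGG, the octamer ATGCAAAT or the ETS-family motif GAGGAAGT, none of which contains another.
Cd79a, chr7:24897247-24897496, forward strand: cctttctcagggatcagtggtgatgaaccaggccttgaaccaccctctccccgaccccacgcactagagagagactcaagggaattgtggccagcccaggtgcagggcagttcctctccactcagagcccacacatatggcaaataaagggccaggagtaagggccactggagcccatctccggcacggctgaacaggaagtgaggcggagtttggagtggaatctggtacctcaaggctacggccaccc
Plcg2, chr8:117498025-117498274, forward strand: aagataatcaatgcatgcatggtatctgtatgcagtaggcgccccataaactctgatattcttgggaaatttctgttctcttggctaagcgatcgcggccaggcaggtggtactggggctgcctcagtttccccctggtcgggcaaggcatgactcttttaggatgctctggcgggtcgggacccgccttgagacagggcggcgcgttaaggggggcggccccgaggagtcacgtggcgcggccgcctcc
Pik3ap1, chr19:41385103-41385352, reverse strand: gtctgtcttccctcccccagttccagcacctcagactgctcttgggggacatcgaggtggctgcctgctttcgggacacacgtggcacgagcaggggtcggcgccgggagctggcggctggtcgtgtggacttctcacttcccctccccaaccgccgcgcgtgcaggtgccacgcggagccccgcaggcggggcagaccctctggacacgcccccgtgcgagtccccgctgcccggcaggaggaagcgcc
Blnk, chr19:40994222-40994471, reverse strand: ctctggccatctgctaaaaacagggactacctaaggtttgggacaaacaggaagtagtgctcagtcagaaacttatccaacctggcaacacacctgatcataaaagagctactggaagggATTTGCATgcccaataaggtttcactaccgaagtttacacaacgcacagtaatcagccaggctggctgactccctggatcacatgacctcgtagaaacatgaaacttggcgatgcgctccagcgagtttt
The octamer was matched in the Blnk window, on the strand opposite to the gene and from -130 to -123 relative to the start, and it was held by 1.6% of 32851 promoter windows of the same length. The EBF1 letters were matched in 1 of the 8 member windows, that of Bank1, against 11.8% of all windows. Neither the forkhead core, held by 3.17% of all windows, nor the ETS motif, held by 2.44%, was matched in any of the 8. These matches describe letters within these windows and nothing about binding.

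Differences below are on the log2 scale, ± the standard error (SE) of the limma fit over 3 arrays per group, and group means are ± SD. Array medians lay between 2.45 and 2.49. Arrays of a group correlated at 0.951 or more across tested genes, except in deleted cells with IgM, where replicate 3 correlated at 0.82 and 0.87 with its group mates. That array also had the lowest mean of the bacterial poly-A control probe sets, 6.42 against 7.40 to 9.79 on the other arrays, and the members' results that use it are given with and without it. All 7 measured markers of the B cell list (Ms4a1, Pax5, Ebf1, Cd22, Cd37, Fcer2a and Cd74) were above 4 on all 12 arrays. Foxp1 was read by 8 probe sets, with log2 differences between genotypes of -0.29 to 0.13 without IgM and -0.30 to 0.32 with it, and none passed in limma (smallest Benjamini-Hochberg adjusted p = 1 and 0.662, with 0 of 8 at an unadjusted p under 0.05 in each). Its probe set with the highest signal read 12.27 to 13.30 in control and 12.26 to 13.20 in deleted cells when unstimulated, then 12.08 to 13.06 and 12.14 to 13.06 respectively after IgM, and the genotypes overlapped. Whether these probe sets lie in the deleted part of Foxp1 was not known here, so they do not check the genotype labels. The 6 early response genes Egr1, Egr2, Egr3, Nr4a1, Myc and Cd69 rose with IgM in both genotypes, with log2 differences of 1.52 to 2.79 in control and 1.34 to 3.86 in deleted cells (limma adjusted p between 2.14e-05 and 0.008).

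**Figure D1:**
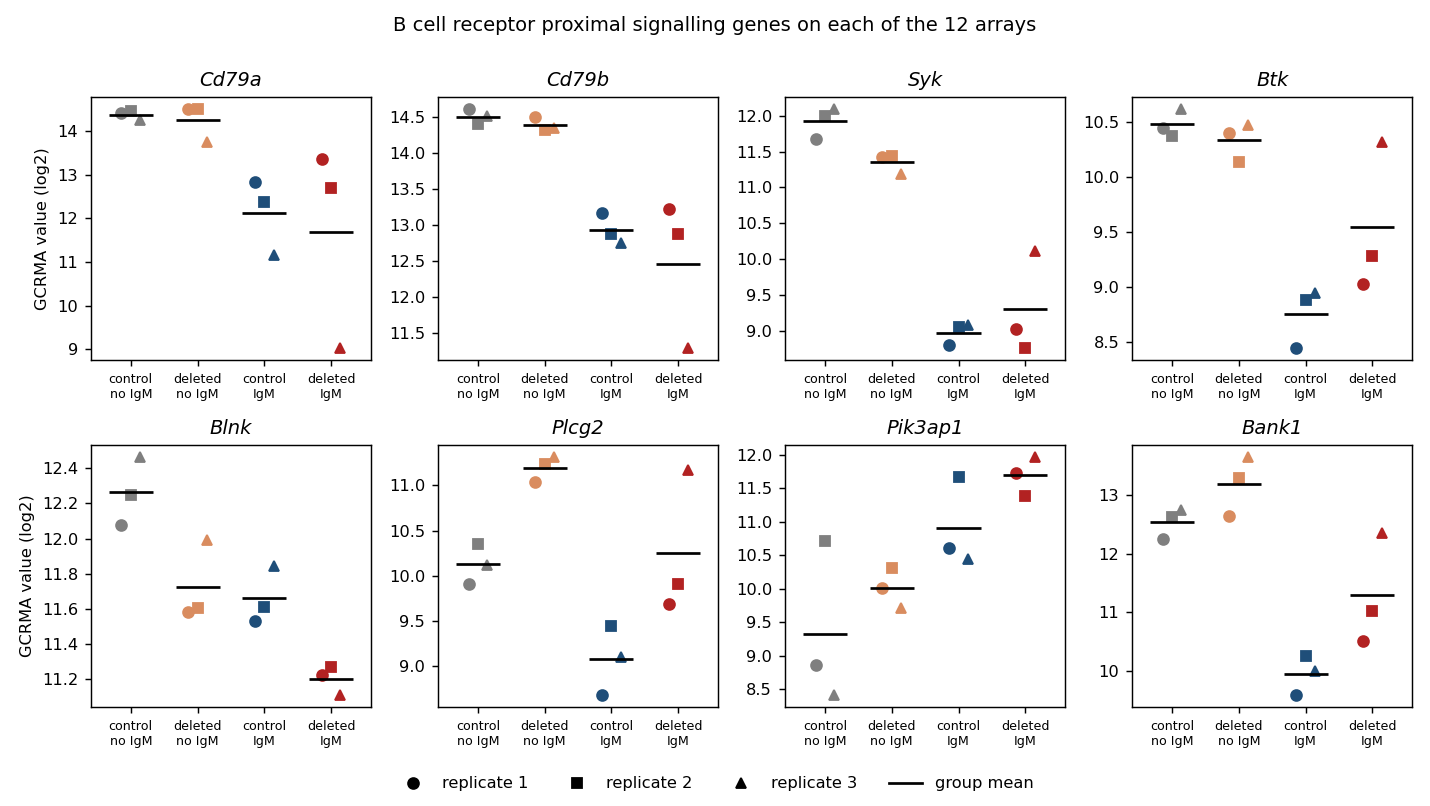
GCRMA log2 values of the 8 measured genes (1 panel each, each with its own y axis that does not start at 0) on all 12 arrays, with a marker for each replicate number and a bar at each group mean. All genes but Pik3ap1 had lower means with IgM than without it in both genotypes, and the triangle of deleted IgM replicate 3 stood at 9.03 for Cd79a and at 12.35 for Bank1, away from its group mates.

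The first question was how IgM altered these genes in control cells. Transcripts of the receptor's signalling subunits, of both kinases, of the scaffold Bank1, of the adaptor Blnk and of Plcg2 were lower after 4 h, and Pik3ap1 was higher. In limma, 4 of 8 genes fell and 0 rose (Syk, Bank1, Btk and Cd79b; Benjamini-Hochberg adjusted p under 0.05 over 9293 genes), where 20.7% of all tested genes passed in either direction, 1111 of 9293 lower and 8.71% higher. The replicate numbers pair the arrays, and with the replicate number as a block all 8 passed, 7 lower and 1 higher, where 20.0% and 15.5% of all genes did. Without deleted IgM replicate 3 all 8 passed too, 7 lower and 1 higher, beside 19.5% and 16.6% of all genes. The median log2 difference of the 8 genes was -1.65, beside -0.05 over all tested genes. In 7 of the 8 the 3 control arrays with IgM lay below the 3 without it, which held for 24.5% of all tested genes. The mean level of the 7 measured B cell markers was lower with IgM as well, 10.61 to 10.76 against 11.60 to 11.62. These markers were uneven, with group means from 10.94 to 8.93 for Cd22 but from 14.19 to 13.98 for Cd74. In limma 2 of the 7 passed, both lower, where 1111 of 9293 genes did. The part of these markers in the results was not tested.

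Syk, the kinase that docks on the phosphorylated receptor tails, had the smallest p of the members and stood 77th of 9293 genes by p. Its values in unstimulated control cells were 11.68, 11.99 and 12.09, and with IgM they were 8.79, 9.05 and 9.08 (replicates 1, 2 and 3). The groups were far apart relative to their spread, with means of 11.92 ± 0.21 and 8.97 ± 0.16 (SD, n = 3). The log2 difference was -2.95 ± 0.31 (SE), or 7.73 times less signal on the linear scale, with a limma adjusted p of 0.000171. All 4 Syk probe sets passed when all 19187 passing probe sets were tested, with differences of -2.95, -3.09, -3.70 and -3.30 (limma adjusted p between 9.4e-05 and 0.000964, where 18.2% of probe sets passed). The last of these was above 4 on 7 of the 12 arrays only, and its IgM values of 3.38 to 3.95 lay where the scale is compressed.

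Bank1 was next. It read 12.25, 12.62 and 12.75 without IgM and 9.58, 10.25 and 10.00 with it, and no array of one group came within a log2 unit of the other group. The log2 difference was -2.60 ± 0.43 (SE), or 6.07 times less signal (limma adjusted p = 0.00201). Btk, the Tec-family kinase that activates PLCG2 and lies on the X chromosome, read 10.45, 10.37 and 10.62 without IgM and 8.44, 8.88 and 8.95 with it. Again the groups did not overlap, and the log2 difference was -1.72 ± 0.31 (SE; limma adjusted p = 0.00287). Btk was lower with IgM in each of the 3 same-numbered pairs, with differences of -2.01, -1.49 and -1.67.

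The receptor subunits were at the upper end of the array's range in unstimulated cells. Cd79b read 14.61, 14.40 and 14.51 without IgM and 13.17, 12.88 and 12.75 with it. The 2 groups were tight and apart, with a log2 difference of -1.58 ± 0.40 (SE; limma adjusted p = 0.0178). That call was lost without any 1 of control IgM replicates 2 and 3 or unstimulated control replicates 1 and 3 (adjusted p = 0.0577, 0.0666, 0.0606 and 0.0524). Its partner Cd79a read 14.42, 14.46 and 14.27 without IgM and 12.85, 12.37 and 11.16 with it. The unstimulated arrays agreed closely, while those with IgM spread over more than a log2 unit. The Cd79a difference was -2.26 ± 0.90 (SE) and did not pass in limma (adjusted p = 0.107). It passed with the replicate block (adjusted p = 0.0265) and without deleted IgM replicate 3, which is not in this comparison but enters its shared estimate of spread (adjusted p = 0.00204).

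Blnk, Plcg2 and Pik3ap1 missed the threshold in control cells by little. Blnk read 12.08, 12.25 and 12.47 without IgM and 11.53, 11.61 and 11.84 with it, a log2 difference of -0.60 ± 0.19 (SE; limma adjusted p = 0.051, or 0.0148 in the blocked fit). It was the smallest IgM difference among the members. For Plcg2, the phospholipase, the unstimulated values of 9.91, 10.36 and 10.12 stood above the IgM values of 8.68, 9.45 and 9.10, a difference of -1.05 ± 0.36 (SE; limma adjusted p = 0.0614, or 0.0207 when blocked). Pik3ap1 went the other way, with 8.87, 10.71 and 8.41 without IgM and 10.61, 11.68 and 10.44 with it. Its groups overlapped because replicate 2 was high in both, but it was higher with IgM in 3 of 3 same-numbered pairs, by 1.74, 0.97 and 2.03. The difference was 1.58 ± 0.53 (SE; limma adjusted p = 0.059, or 0.0207 when blocked), and its second probe set gave 1.42 (adjusted p = 0.105, or 0.0147 when blocked).

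The next question was whether deleted cells responded to IgM in the same genes. There limma called 4 of 8, with Syk, Cd79b and Bank1 lower and Pik3ap1 higher, where 9.21% of all tested genes fell and 9.78% rose. All 8 passed with the replicate block, 7 lower and 1 higher (19.3% and 17.3% of all genes). Without deleted IgM replicate 3, 5 of 8 passed, all lower (Syk, Cd79b, Bank1, Btk and Plcg2), where 12.8% of all tested genes fell, and with that array left out and the block kept, all 8 passed again, 7 lower and 1 higher (29.2% and 24.3%). The median difference was -1.43, beside -0.08 over all tested genes. The 3 arrays with IgM lay below the 3 without it for 5 genes and above for 1, which held for 17.9% and 16.6% of all tested genes. The B cell markers averaged 10.85 to 10.86 with IgM and 11.60 to 11.72 without it. Of the 7, 2 passed in limma, both lower (9.21% of all genes), while the group mean of Ebf1 went from 10.35 up to 10.78. The part of these markers was not tested.

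Syk read 11.43, 11.44 and 11.19 in unstimulated deleted cells and 9.02, 8.76 and 10.11 with IgM. The log2 difference was -2.06 ± 0.31 (SE; limma adjusted p = 0.00137), and -2.46 without deleted IgM replicate 3, whose value was the highest of its group. All 4 Syk probe sets passed here too, with differences of -2.06, -2.23, -2.19 and -1.78 (limma adjusted p between 0.000577 and 0.0158, where 17.0% of probe sets passed), and they were -2.46, -2.58, -2.63 and -2.11 without that array. Cd79b read 14.51, 14.33 and 14.35 without IgM and 13.22, 12.88 and 11.29 with it, so the same replicate 3 was here the lowest. Its difference was -1.93 ± 0.40 (SE; limma adjusted p = 0.0074) and -1.35 without that array. Bank1 read 12.65, 13.29 and 13.66 without IgM and 10.51, 11.01 and 12.35 with it, a difference of -1.91 ± 0.43 (SE; limma adjusted p = 0.0116), or -2.44 without that array. The Bank1 call was lost without unstimulated deleted replicate 3 (adjusted p = 0.0502).

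Pik3ap1 read 10.02, 10.30 and 9.71 without IgM and 11.72, 11.39 and 11.97 with it. These groups did not overlap, and the difference of 1.69 ± 0.53 (SE) passed by little in limma (adjusted p = 0.0487). That call was lost without any 1 of the 6 deleted arrays (0.071 to 0.136), control IgM replicate 1 or 3 (0.0636 and 0.0595) or unstimulated control replicate 1 (0.0596), and the difference was 1.55 without deleted IgM replicate 3 (0.0957). Its second probe set rose from 6.04 ± 0.84 to 8.78 ± 1.07 (SD, n = 3), a log2 difference of 2.73 ± 0.55 (SE; limma adjusted p = 0.00714 over probe sets), or 2.18 without deleted IgM replicate 3 (0.0145).

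In deleted cells the other 4 genes missed the threshold. Cd79a read 14.51, 14.51 and 13.75 without IgM and 13.37, 12.70 and 9.03 with it. The difference of -2.56 ± 0.90 (SE; limma adjusted p = 0.0729) moved to -1.22 when replicate 3, by far the lowest, was left out (limma adjusted p = 0.0765, or 0.00341 with the block as well). Btk read 10.40, 10.13 and 10.47 without IgM and 9.02, 9.28 and 10.31 with it, a difference of -0.79 ± 0.31 (SE; limma adjusted p = 0.0988). Replicate 3 with IgM overlapped the unstimulated arrays, and without it the difference was -1.18 (limma adjusted p = 0.00196). Plcg2 behaved alike, with 11.04, 11.23 and 11.32 without IgM, 9.69, 9.91 and 11.17 with it, and a difference of -0.94 ± 0.36 (SE; limma adjusted p = 0.0923) that became -1.40 without replicate 3 (limma adjusted p = 0.0021). Blnk read 11.58, 11.61 and 11.99 without IgM and 11.22, 11.27 and 11.11 with it, a difference of -0.53 ± 0.19 (SE; limma adjusted p = 0.0854, or 0.0267 with the block), and of -0.48 without replicate 3 (limma adjusted p = 0.0873).

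**Figure D2:**
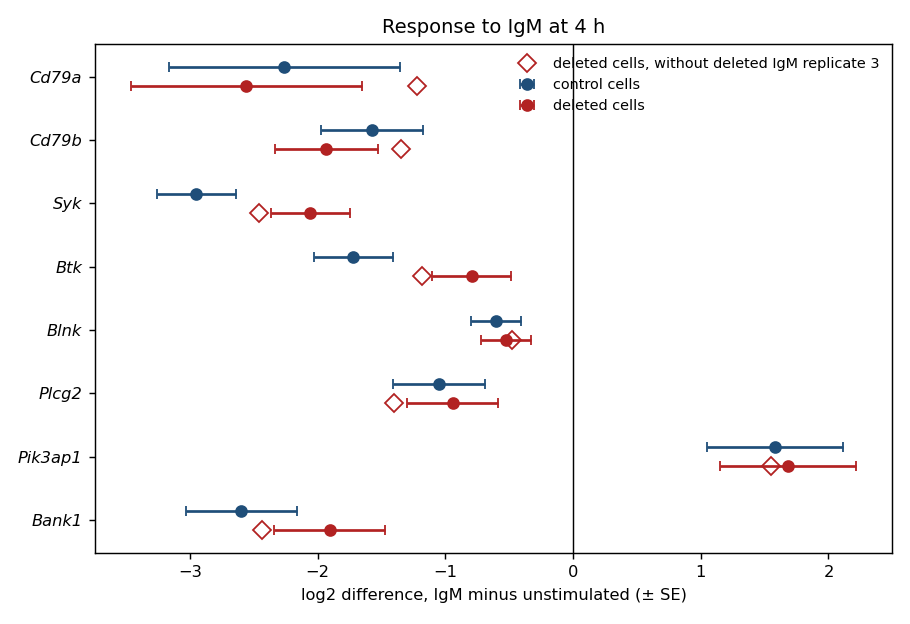
Log2 difference between cells with IgM and unstimulated cells (x axis, ± SE from limma) for each gene (y axis) in control cells (blue) and deleted cells (red), with open diamonds for deleted cells without deleted IgM replicate 3. The points of 7 genes lie below 0 and those of Pik3ap1 lie above 0 in both genotypes, and the Cd79a diamond lies at -1.22 against -2.56 with that array.

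The array of deleted IgM replicate 3 differed from its group mates in opposite directions among the members. Relative to the mean of replicates 1 and 2 it was lower for Cd79a by a log2 difference of -4.01 and for Cd79b by -1.76, the members with the shortest genomic spans (4362 and 3222 bp). It was higher by 1.59 for Bank1, 1.37 for Plcg2, 1.22 for Syk, 1.16 for Btk and 0.42 for Pik3ap1, whose spans run from 41295 to 272779 bp, and it differed by -0.14 for Blnk (65295 bp). Over all tested genes, in 5 span classes equal in number, the same difference had a median of -1.29 in the class with the shortest spans, up to 7968 bp, and 0.81 in that with the longest, from 62292 bp. The part of genomic span in the members' differences was not tested.

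**Figure D3:**
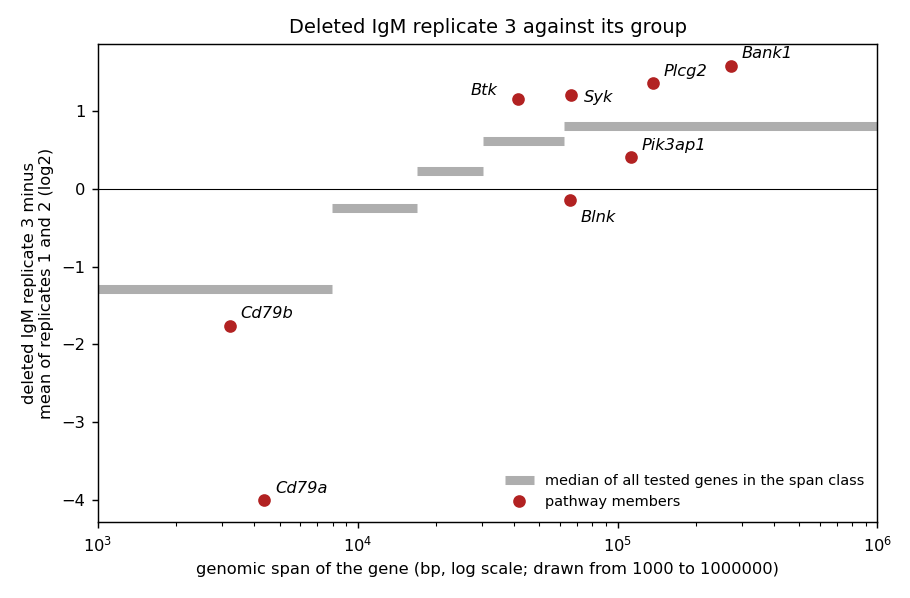
Log2 difference between deleted IgM replicate 3 and the mean of the other 2 arrays of its group (y axis) against genomic span in bp (x axis, log scale) for the 8 genes (points) and, as grey bars, the median of all tested genes in each of 5 span classes. Cd79a and Cd79b lie below 0 at the short end and Bank1, at 1.59, lies highest at the long end.

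Whether the 2 genotypes responded differently was tested by the interaction, that is, the IgM difference in deleted cells minus that in control cells. For a gene that fell in both genotypes, a positive value means a smaller fall in deleted cells. No member passed in limma (0 of 8, smallest adjusted p = 0.951), where 0.108% of all tested genes did, and none passed with the replicate block or without deleted IgM replicate 3 (0.172% of all genes in each). By unadjusted limma p, 0 of 8 were under 0.05. The smallest was 0.0575 for Btk, and 4.32% of all tested genes had a p no larger than that. The estimate was 0.93 for Btk (95% confidence interval -0.04 to 1.89) and 0.89 for Syk (-0.08 to 1.86), and it fell to 0.54 and 0.49 without deleted IgM replicate 3. For Bank1 it was 0.69 (-0.66 to 2.05), for Plcg2 0.11 (-1.01 to 1.23), for Pik3ap1 0.11 (-1.55 to 1.77) and for Blnk 0.08 (-0.53 to 0.68), and without that array these were 0.16, -0.35, -0.032 and 0.12. It was negative for Cd79b, -0.36 (-1.61 to 0.90), and for Cd79a, -0.30 (-3.12 to 2.52), and both turned positive without that array, at 0.23 and 1.04. The other Syk probe sets gave 0.86, 1.51 and 1.52, or 0.51, 1.07 and 1.19 without that array. The last of these is the one with compressed IgM values. The second Pik3ap1 probe set gave 1.31, or 0.76 without that array. None of these passed over probe sets (limma adjusted p = 0.968 for each with all arrays). The main fit leaves out the pairing and keeps that array. Its intervals leave room for genotype differences of a log2 unit or more in 7 of the 8 genes, Blnk being the exception. With the block and without that array, SEs of the interaction ran from 0.11 (Blnk) to 0.58 (Pik3ap1), beside 0.28 (Blnk) to 1.28 (Cd79a) in the main fit. The width of the intervals therefore depends on the fit.

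**Figure D4:**
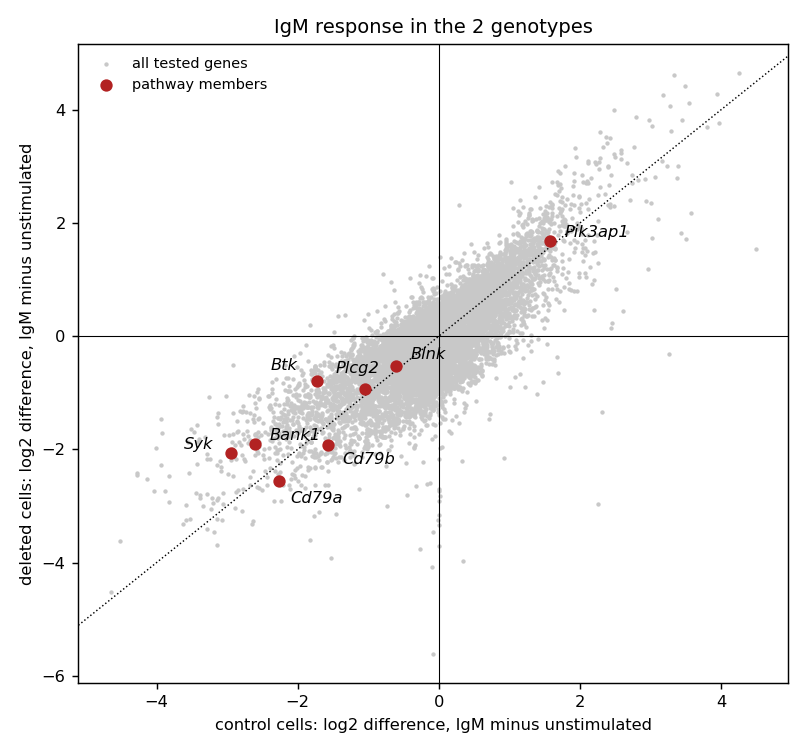
Log2 difference between IgM and unstimulated cells in control cells (x axis) against the same in deleted cells (y axis) for all 9293 tested genes (grey) and the 8 members (red), with a dotted line of equal response. The members lie at the lower left apart from Pik3ap1, at 1.58 and 1.69, in the upper right.

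The genotypes were then compared without IgM, to ask what Foxp1 deletion altered in resting cells. Plcg2 was higher in deleted cells, Blnk and Syk were lower, and the receptor subunits and Btk had differences close to 0. But none passed the threshold in limma (0 of 8, smallest adjusted p = 0.204), where 2.85% of all tested genes passed. By unadjusted limma p 2 of 8 were under 0.05. The larger was 0.0188 for Blnk, and 7.23% of all tested genes had a p no larger than that. With the replicate block none passed the adjusted threshold either (6.89% of all genes). Without deleted IgM replicate 3, 1 passed (5.93% of all genes), and with that array left out and the block kept, 4 did, Plcg2 and Bank1 higher and Blnk and Syk lower (21.6% of all genes). In 3 of 8 genes the 3 arrays of one genotype lay beyond the 3 of the other, against 18.9% of all tested genes.

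Plcg2 read 9.91, 10.36 and 10.12 in control cells and 11.04, 11.23 and 11.32 in deleted cells. The genotypes did not overlap, and Plcg2 was higher in deleted cells in 3 of 3 same-numbered pairs, by 1.13, 0.88 and 1.20. The log2 difference was 1.07 ± 0.36 (SE), or 2.10 times more signal, with a limma adjusted p of 0.204, of 0.0669 in the blocked fit and of 0.0161 without deleted IgM replicate 3. Markers of cells that can also make PLCG2 had higher group levels in deleted cells. The mean log2 level over the 6 progenitor and mast cell markers lay between 4.08 and 5.79 on unstimulated control arrays and between 6.85 and 8.28 on deleted ones. That over 8 neutrophil and granule markers lay between 4.02 and 7.35 and between 5.99 and 10.57, so these ranges overlapped. In limma 3 of the 6 passed, all higher, and 0 of the 8, where 2.85% of all tested genes passed. The mean level over 7 measured of 8 macrophage and monocyte markers lay between 4.04 and 4.70 and between 4.90 and 6.00, with Itgam and Fcgr1 at or below 4 on all 12 arrays. Of the 5 tested in that list 1 passed higher and 1 lower in deleted cells, the latter being Adgre1 with means of 6.01 in control and 4.57 in deleted cells. The part of such cells in the Plcg2 difference was not tested, and in such bulk samples a share of cells and RNA per cell cannot be told apart.

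Blnk, the adaptor that brings BTK and PLCG2 together, read 12.08, 12.25 and 12.47 in unstimulated control cells and 11.58, 11.61 and 11.99 in deleted cells. Its genotypes did not overlap, and it was lower in 3 of 3 pairs, with a difference of -0.54 ± 0.19 (SE; limma adjusted p = 0.26, or 0.0809 with the block). Syk was also lower in 3 of 3 pairs, with a difference of -0.57 ± 0.31 (SE; limma adjusted p = 0.675) and values of 11.43, 11.44 and 11.19 below all 3 control values. Its 4 probe sets all had negative differences, of -0.57, -0.52, -0.72 and -1.5. The last did not pass over probe sets (limma adjusted p = 0.0728, where 2.03% of probe sets passed), but did with the block (0.0173) and without deleted IgM replicate 3 (0.0271). Bank1 was higher in 3 of 3 pairs, by 0.39, 0.67 and 0.91, with overlapping groups and a difference of 0.66 ± 0.43 (SE; limma adjusted p = 0.866).

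The receptor subunits gave small genotype differences in unstimulated cells, of -0.11 (95% confidence interval -1.0 to 0.77) for Cd79b and -0.13 (-2.12 to 1.86) for Cd79a. That of Btk was -0.14 (-0.83 to 0.54). The wide interval of Cd79a rests on a spread estimate shared with deleted cells with IgM, and its unstimulated values all lay between 13.75 and 14.51. The 2 probe sets of Pik3ap1 disagreed in sign. The one with more signal read 9.33 ± 1.22 in control and 10.01 ± 0.30 in deleted cells (SD, n = 3), a difference of 0.68, and the other read 6.84 ± 0.46 and 6.04 ± 0.84 (SD, n = 3), a difference of -0.79. Neither passed (limma adjusted p = 0.967 and 0.889 over probe sets), so no direction is given for Pik3ap1 between genotypes.

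With IgM, the genotype differences of Plcg2, Bank1 and Btk were positive and that of Blnk negative. No member passed in limma (0 of 8, smallest adjusted p = 0.152), where 1.72% of all tested genes passed. By unadjusted limma p 4 of 8 were under 0.05. The largest of these was 0.0375 for Blnk, and 11.6% of all tested genes had a p no larger than that. The replicate block called 2, Bank1 and Plcg2, both higher in deleted cells, where 5.66% of all genes were called higher. Without deleted IgM replicate 3 none passed (2.35% of all genes), and with that array left out and the block kept the same genes did (9.73% higher). The 3 arrays of the genotypes did not overlap in 4 of 8 genes, 3 higher and 1 lower in deleted cells, against 12.3% and 5.55% of all tested genes.

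Bank1 read 9.58, 10.25 and 10.00 in IgM-treated control cells, while the deleted cells gave 10.51, 11.01 and 12.35, with a gap between the genotypes. The log2 difference was 1.35 ± 0.43 (SE; limma adjusted p = 0.178, or 0.0261 with the block), and 0.82 without deleted IgM replicate 3 (adjusted p = 0.28, or 0.0071 with the block as well). Plcg2 read 8.68, 9.45 and 9.10 in control and 9.69, 9.91 and 11.17 in deleted cells. Each deleted array was above each control array, and the difference was 1.18 ± 0.36 (SE; limma adjusted p = 0.152, or 0.0471 with the block), moving to 0.72 without deleted IgM replicate 3 (adjusted p = 0.175, or 0.0128 with the block as well). Progenitor and mast cell markers were higher on deleted arrays here as well, with a mean level of 6.54 to 7.56 against 4.09 to 5.18 on control arrays. In limma 3 of these 6 passed, where 1.72% of all tested genes did. Neutrophil and granule markers overlapped, at 4.34 to 9.76 against 3.74 to 6.54, and 0 of 8 passed. Macrophage and monocyte markers lay at 4.43 to 5.91 against 3.82 to 4.39, with 1 of 5 tested passing. The part of these markers was not tested.

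Btk was higher in deleted cells with IgM in 3 of 3 pairs, by 0.58, 0.40 and 1.37, a difference of 0.78 ± 0.31 (SE; limma adjusted p = 0.292, or 0.092 with the block), and of 0.40 without deleted IgM replicate 3. Blnk read 11.53, 11.61 and 11.84 in control and 11.22, 11.27 and 11.11 in deleted cells. It was lower in 3 of 3 pairs, and its difference of -0.46 ± 0.19 (SE; limma adjusted p = 0.322, or 0.111 with the block) was -0.42 without deleted IgM replicate 3. The other members overlapped between genotypes, with differences of -0.43 for Cd79a, -0.47 for Cd79b and 0.32 for Syk, which became 0.91, 0.11 and -0.08 without deleted IgM replicate 3, and of 0.79 for Pik3ap1, which became 0.65. The second Pik3ap1 probe set gave 0.52, which became -0.037 without that array.

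**Figure D5:**
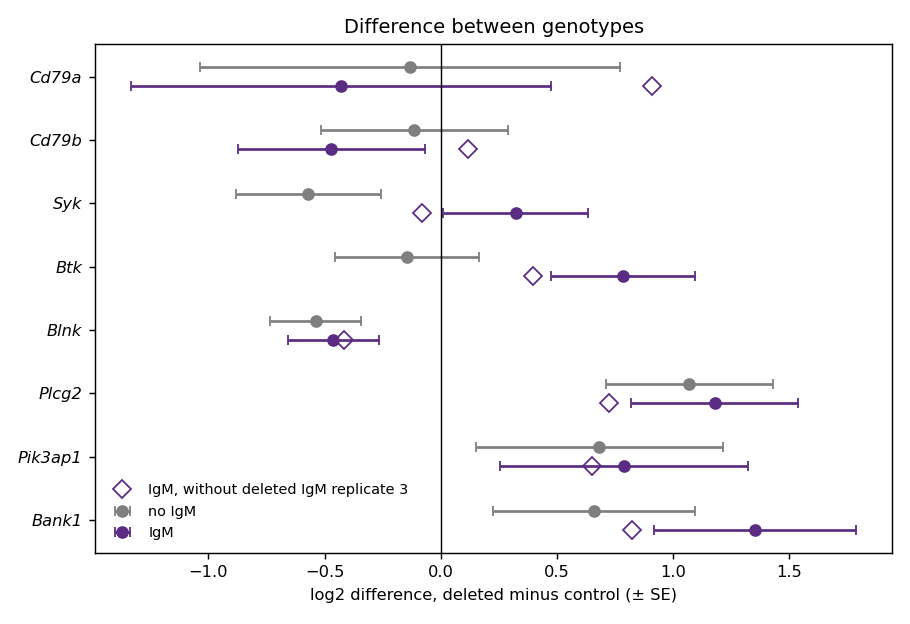
Log2 difference between deleted and control cells (x axis, ± SE from limma) for each gene (y axis) without IgM (grey) and with IgM (purple), with open diamonds for the IgM comparison without deleted IgM replicate 3. Plcg2 and Bank1 lie above 0 and Blnk below 0 in both comparisons, and no point passed the threshold in these fits, which leave out the replicate block.

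Ordered by group mean, the genes fell into a few arrangements. For Cd79a and Cd79b both unstimulated groups stood above both IgM groups, and in each pair the genotypes overlapped. Syk had the order unstimulated control, unstimulated deleted, deleted with IgM, control with IgM, and overlapped only between the last of these. Btk had the same order, with overlap between the unstimulated genotypes and between unstimulated deleted cells and deleted cells with IgM. Blnk was highest in unstimulated control cells and lowest in deleted cells with IgM, and the middle groups, unstimulated deleted and control with IgM, overlapped. Plcg2 was highest in unstimulated deleted cells and lowest in control cells with IgM, and deleted cells with IgM (10.25 ± 0.80, SD, n = 3) overlapped both unstimulated deleted and unstimulated control cells (10.13 ± 0.22). Pik3ap1 had deleted cells with IgM at the top, then control cells with IgM, unstimulated deleted and unstimulated control cells. It overlapped within each of the genotype pairs, and also between control cells with IgM (lowest 10.44) and unstimulated control cells (highest 10.71). Bank1 had the overlapping unstimulated groups, deleted first, above deleted cells with IgM, whose highest array overlapped the control ones, and control cells with IgM alone at the bottom.

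For each member that passed in some comparison, the other genes with the most similar profile were sought by Pearson's r of log2 values over the 12 arrays, which mix stimulated and unstimulated cells and include the deviating array, so r is a description. Bank1 was most like Uba7 and Rasgrp3 (r = 0.99 for both, and 0.99 without deleted IgM replicate 3). Rasgrp3 activates Ras in B cells downstream of PLCG2. Btk was most like Fam111a and Ablim1 (r = 0.98 for both), Syk most like Oas1c and Dennd3 (r = 0.98 for both), and Cd79b most like Ppdpf and Cdk2ap2 (r = 0.99 for both). The closest to Pik3ap1 were Mcph1 and the cell cycle phosphatase gene Cdc25a (r = 0.95 and 0.94). Among the members themselves r was 0.96 between the partners Cd79a and Cd79b, 0.95 between Btk and Bank1 and 0.91 between Plcg2 and Bank1.

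The wider pathway was read from 65 further genes listed by role, of which 53 were tested. With IgM, 11 of 53 fell and 1 rose in control cells, where 1111 of all 9293 tested genes fell and 809 rose, and 8 fell and 5 rose in deleted cells, where 9.21% and 9.78% of all genes did. The median log2 difference was -0.45 in control and -0.25 in deleted cells. With the replicate block 21 fell and 5 rose in control cells, where 20.0% and 15.5% of all tested genes did. In deleted cells 20 fell and 8 rose with the block, where 19.3% and 17.3% of all genes did. Without deleted IgM replicate 3, 20 fell and 4 rose in control cells (19.5% and 16.6% of all genes). There 15 fell and 6 rose in deleted cells, where 1194 and 1196 of all 9293 genes did. Between genotypes 0 of 53 passed without IgM, where 2.85% of all tested genes did, and 5 with the block (6.89%). With IgM 1 passed, where 1.72% of all genes did, and 9 with the block, where 628 of all 9293 genes did. The 1 was Pik3r1, which encodes a regulatory subunit of phosphoinositide 3-kinase and was higher in deleted cells by 0.93 ± 0.20 (SE; limma adjusted p = 0.0472), or 0.77 without deleted IgM replicate 3 (0.041). All 13 genes of these lists that were called for IgM in deleted cells kept their call and direction without that array (highest limma adjusted p = 0.0224). Among them the difference of Vav3 moved from 1.55 to 1.03, and that of Cr2 from 2.21 to 1.71.

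Among kinases, Csk, which encodes the negative regulator of Src-family kinases, fell with IgM (log2 differences of -1.47 in control and -1.23 in deleted cells), whereas Fyn, a Src-family kinase gene, rose by 1.32 and 2.03 (limma adjusted p between 0.000348 and 0.00598 for these). Blk, another Src-family kinase gene, rose in deleted cells by 1.10 (limma adjusted p = 0.00495) and had a difference of 0.10 in control cells. That list of 7 had 4 tested, with 1 higher and 1 lower in control cells and 2 higher and 1 lower in deleted cells. With the block it was 1 higher and 2 lower in control cells and unchanged in deleted cells. Shares of all genes with the block are those given above for the 53 genes. In limma the interaction was called for 0 of these 53, where 0.108% of all tested genes were, and for 0 with the block (0.172%). With the block and without deleted IgM replicate 3 it was called for 1, on the Src and Tec kinase list, beside 187 of all 9293 genes. A response particular to 1 genotype is therefore not shown by the main fit for any of the 53. Of 14 adaptor and ubiquitin ligase genes 3 fell in control cells, the ligase gene Cblb (-2.14), Nck2 (-1.66) and the phosphoinositide-binding adaptor gene Dapp1 (-2.18). In deleted cells 2 fell, Cblb (-1.33) and Nck2 (-1.06), and 2 rose, Vav3 by 1.55 and Sh3bp2 by 1.29. With the block 4 of the 14 fell and 1 rose in control cells, and 4 fell and 2 rose in deleted cells.

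Downstream of PLCG2, 4 of 13 calcium and NFAT genes fell in control cells, the calcium release channel gene Itpr3 (-2.61), the calcineurin subunit gene Ppp3ca (-1.73), the calcium sensor gene Stim1 (-1.72) and Nfatc2 (-1.30). In deleted cells 2 fell, Itpr3 (-1.92) and Ppp3ca (-1.26). With the block 7 of the 13 fell and 1 rose in control cells, and 5 fell and 2 rose in deleted cells. Of 9 tested Ras, MAP kinase and Rac genes 2 fell in control cells, Rasgrp3 (-2.24) and Rasgrp1 (-1.71), and 3 in deleted cells, Rasgrp1 (-1.5), Rasgrp3 (-1.42) and the kinase gene Map2k1 (-0.71). With the block 5 of the 9 fell in control cells and 6 in deleted cells. Of the 3 tested receptor and coreceptor genes, 0 passed in control cells, and Cr2, a complement receptor gene, rose in deleted cells by 2.21 (limma adjusted p = 0.00719). With the block 1 of the 3 rose in control cells too, as it did without deleted IgM replicate 3. In deleted cells 1 rose and 1 fell with the block. The interaction was called for 0 of the 3, so a response particular to deleted cells is not shown. Ighm, the heavy chain of the receptor itself, had IgM differences of -0.52 in control and -0.25 in deleted cells (limma adjusted p = 0.192 and 0.519). Of 6 phosphoinositide 3-kinase and Akt genes Pik3r1 fell in control cells (-1.10) and 0 passed in deleted cells, and with the block 2 fell in each genotype. None of the 4 tested protein kinase C and CBM complex genes passed in either genotype (2 in each with the block).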

How the data were processed

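RNA of 12 samples was hybridised to Affymetrix arrays, and the deposited values are log2 expression per probe set, made by the authors with GCRMA per the submitters' processing notes (version and settings not given in the sources used here). GCRMA corrects background from probe sequence, normalizes by quantiles and summarises probes. The values run from 2.23 to 15.79, as a log2 scale without centring does. Values near the floor have no order. Arrays carry no read depth, and their number limits precision.

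The annotation named 1 gene for 34945 of 45101 probe sets, several for 932 and none for 9160, beside 64 controls, and 34741 were matched by gene identifier to symbols of GRCm38.p6, which gave the chromosome and span. Gene tests used those with 1 gene.

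Tests used limma 3.58.1 in R 4.3.3 with 1 mean per group, all 12 arrays, two-sided, with Benjamini-Hochberg adjustment over 9293 genes (threshold 0.05), and a second fit over 19187 probe sets. Errors of differences are standard errors of that fit. The model was tested on simulated data with independent arrays and 1 spread per gene. That test therefore does not cover the likeness of same-numbered arrays or the deviating array. Replicate numbers 1 to 3 come from the labels. The departures from group means of arrays sharing a number correlated at 0.17 to 0.85 in every pair, all above 0.1, so they were taken as pairs. The main fit leaves this pairing out. The fit with the number as a block is given where it changes a member's call, and as counts for the pathway lists. Further alternatives concerned the filter, the normalization, which probe set stands for a gene, array weights, the variance model, the threshold and the arrays used. The members, the gene lists and the tests were chosen with earlier results of these data known.

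Named were all members, up to 4 genes per pathway list past the threshold by smallest p, Ighm (singled out after its values were seen) and the 2 most similar genes per called member. Promoter letters were searched in RefSeq windows.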

Additional observations from a re-analysis of the deposited data

Results flagged for a closer look

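Btk was flagged because its genotype difference had opposite signs in all same-numbered pairs of the 2 conditions. This rule was applied to the members only. The share of all tested genes that meet it was not computed, so the flag shows nothing particular to Btk. Btk was lower in deleted cells in 3 of 3 pairs without IgM (-0.05, -0.24 and -0.15), where the genotypes overlapped. It was higher in 3 of 3 pairs with IgM (0.58, 0.40 and 1.37). The interaction was 0.93 ± 0.44 (SE, n = 3 per group) and did not pass (limma adjusted p = 0.951, 0.484 with the replicate block), and it was 0.54 without deleted IgM replicate 3.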

How the results depend on the processing

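For IgM in control cells the main count of 4 of 8 became 8 with the replicate block, 8 with the block and without deleted IgM replicate 3, 7 with array weights, with only the compared groups and at a threshold of 0.1, and 2 to 8 when arrays were left out. For IgM in deleted cells the count of 4 became 8, 8, 7, 2 and 8 under the same settings in that order, and 0 to 6 when arrays were left out, the 0 and 1 without all arrays of replicate 1 or 2. Those settings keep 8 arrays. Between unstimulated genotypes the count of 0 became 4 with the block and without deleted IgM replicate 3, 3 with array weights, 1 with only the compared groups and 0 to 1 with arrays left out. Between genotypes with IgM it became 2 with the block, with or without that array. Over the 12 probe sets, the block moved the counts from 0 to 1 in both genotype comparisons and from 7 to 12 in both IgM comparisons, and without deleted IgM replicate 3 they were 2 between unstimulated genotypes and 11 for IgM in control cells. The interaction stayed at 0 in every setting. Calls over all 9293 tested genes rose too with the block, and again without deleted IgM replicate 3 as well. They went from 1920 to 3299 and 5874 for IgM in control cells and from 1765 to 3408 and 4976 in deleted cells. Between genotypes they went from 265 to 640 and 2007 without IgM and from 160 to 628 and 1223 with it. Shares of all features are not given for the other settings and probe sets here, so those counts say nothing particular about the members. Array weights gave deleted IgM replicate 3 a weight of 0.057 against 0.73 to 2.90 for the others.

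No called difference changed sign. Among uncalled ones, the block without deleted IgM replicate 3 turned the difference with IgM to 0.64 for Cd79a, 0.078 for Cd79b and -0.064 for Syk and the interaction to 0.77 for Cd79a, 0.19 for Cd79b, -0.32 for Plcg2 and -0.31 for Pik3ap1. Array weights turned the former to 0.61, 0.052 and -0.16 and the interaction of Cd79a, Cd79b and Plcg2 to 0.64, 0.14 and -0.37. The unstimulated genotype difference of Pik3ap1 was -0.055 as the mean of its probe sets and -0.79 with all probe sets tested. With arrays left out, the ranges that crossed 0 were -0.26 to 0.12 for Cd79a between unstimulated genotypes, and with IgM -1.26 to 0.91 for Cd79a, -0.85 to 0.11 for Cd79b and -0.082 to 0.63 for Syk. For the interaction they were -1.13 to 1.04 for Cd79a, -0.73 to 0.23 for Cd79b, -0.035 to 0.24 for Blnk, -0.35 to 0.39 for Plcg2 and -0.58 to 0.57 for Pik3ap1. The cause was not tested. The IgM call of Pik3ap1 in deleted cells was lost with no filter, quantile normalization or array weights (adjusted p = 0.149, 0.0571 and 0.0611), that of Cd79b in control cells with no filter (0.0585), and those of Cd79b and Bank1 in deleted cells with only the compared groups (0.0793 and 0.0894).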
